A study of Mus musculus with 6 samples.

Results

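The genes of mitochondrial protein import were examined in microglia with and without PGC-1α overexpression. The members were genes whose symbol began with Tomm or Timm followed by a digit, together with Dnajc19, Pam16, Grpel1, Grpel2, Hspa9, Pmpca, Pmpcb, Samm50, Mtx1, Mtx2, Chchd4 and Gfer. This rule used names and no measured value. It took 38 genes, with 57 array probes, of 23462 genes with a probe. One value per gene was used, that of the probe with the highest mean signal. Of the 38 genes, 35 were tested, because their probe was well above background on every array of at least 1 group, and 33 had a usable value on all 6 arrays. The probes of Tomm20l, Timm8a2 and Tomm6os, an antisense RNA that the naming rule also took, stayed below that level on every array. Tomm6 lacked a value on 1 PGC-1αf/f array, and Tomm70a had a value on only 1 array of each group.

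The 6 microglia samples came from mice whose labels give male sex and an age of 10 weeks, of C57BL/6 background per the study's methods, with 3 arrays in each group and no stroke model named in their labels. PGC-1αf/f mice carried an inducible allele of PGC-1α, the transcriptional coactivator encoded by Ppargc1a, with loxP sites and eGFP. The mPGC-1α mice carried that same allele plus Cx3cr1tm2.1(cre/ERT2)Litt, a Cre recombinase in the Cx3cr1 locus that tamoxifen activates, and the controls were PGC-1αf/f littermates. Tamoxifen was given on consecutive days and followed by an interval, and cells were drawn out of brain suspensions with an antibody to P2RY12. Cx3cr1 is also active in other myeloid cells, and per the study's methods the interval served to make induction specific to microglia. The labels did not say whether each array came from a separate animal, so the p-values measure the spread between these 3 and 3 samples, which may be technical.

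Nearly all mitochondrial proteins are encoded in the nucleus, made in the cytosol and imported. They enter through the TOM complex of the outer membrane, from which sorting machines take over: SAM builds barrel proteins into the outer membrane, the MIA pathway folds small cysteine-rich proteins in the intermembrane space, the small TIM chaperones lead carrier proteins to TIM22, and TIM23 passes proteins with a presequence inward. A motor built around the chaperone mtHsp70 pulls those proteins into the matrix, where the processing peptidase removes the presequence. PGC-1α is known as a coactivator of genes for mitochondrial biogenesis, and the comparison asks how far transcripts of this import route differed when it was overexpressed in microglia.

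All levels below are log2 signal minus the 75th percentile of the array, and all differences are mPGC-1α minus PGC-1αf/f on that log2 scale. Between 27025 and 30272 of 59305 spots were well above background on each array, the 75th percentile of the signal lay between 1012 and 2138 intensity units, and 0 spots were saturated. All 12 microglia markers were well above background on all 6 arrays, with a summed level of 7.40 to 7.75 in PGC-1αf/f and 7.19 to 7.68 in mPGC-1α microglia and a median difference of -0.24 over the list. PGC-1αf/f replicate 3 stood apart, with a mean correlation with the other arrays of 0.928 against at least 0.962 for each of the others, and with a summed level of blood leukocyte markers of 4.12 against 6.63 to 7.18 elsewhere (13 of these 17 markers were well above background on all 6 arrays and 2 on none). The array labelled mPGC-1α replicate 3 had 0 of 4 Y-linked genes above background, against 4 of 4 on every other array, and a mean spike-in level of 2.10 against 0.87 to 1.15. PGC-1αf/f arrays lay in slide row 1 and mPGC-1α arrays in slide row 2, so row and group cannot be told apart. Only mPGC-1α mice carried the Cre allele in the Cx3cr1 locus, so that allele and overexpression cannot be told apart either. The targeted gene, Ppargc1a, read 0.19, -0.44 and -1.21 in PGC-1αf/f microglia, compared with 0.57, 0.28 and 0.08 in mPGC-1α microglia. These groups overlapped, and the difference of 0.80 (SE 0.35) had a limma adjusted p of 0.306. It was 0.44 without PGC-1αf/f replicate 3 and 1.14 without PGC-1αf/f replicate 1.

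No import gene changed at an adjusted p under 0.05 between mPGC-1α and PGC-1αf/f microglia. Of the 35 tested, 0 passed by limma with Benjamini-Hochberg adjustment, beside 7 of 13085 genes, or 0.0535%, over the whole array. At an unadjusted p under 0.05, 1 import gene was higher (2.86%), Timm10, where 7.83% of all genes tested were, and 0 were lower, where 5.75% of all genes were. The smallest adjusted p among the import genes was 0.284 and the largest 0.991. In RNA from a bulk preparation, a smaller share of microglia and less transcript per microglial cell cannot be told apart.

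Most of the small differences pointed upward on this scale. The mean was higher in mPGC-1α microglia for 27 of the 35 import genes (77.1%), beside 52.9% of all genes tested, but for 14 of 35 (40%), beside 34.7% of all genes, when arrays were aligned on their median instead of their 75th percentile. The median difference of the import genes was 0.10, beside 0.02 for all genes. Aligning on the median moved the median of all genes to -0.11 and that of the import genes to -0.03. The import genes lay 0.0845 above all genes with the one scale and 0.0869 above with the other. Aligning on the median moves every gene with a value on each array by the same amount. A similar offset was therefore built in and is no check. That offset was 0.0478 without PGC-1αf/f replicate 3, 0.128 without PGC-1αf/f replicate 2 and 0.0257 with array weights. Groups did not overlap for 5 of the 33 genes with 6 values, all 5 higher in mPGC-1α microglia (15.2%, beside 12.4% of genes over the whole array). None was lower without overlap, beside 10.7% of all genes. These 5 were Timm10, Mtx2, Timm23, Samm50 and Timm9. With the median shift only Timm10 had groups apart in that direction, and Grpel2 and Timm22 in the other.

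The differences were small. Among the 33 genes with 6 values the difference ran from -0.23 for Timm21, or 0.851-fold, to 0.40 for Timm10, or 1.32-fold. Their 95% limma intervals all lay between -0.69 and 0.89, so that a 2-fold rise and a 2-fold fall lay outside the interval of each of the 33, taken one at a time. Each difference was also computed under 18 alternatives of scaling, filter, model or arrays (16 for Tomm70a), and the ranges over alternatives given below are the lowest and highest of these. The median absolute difference was 0.159 for the import genes and 0.195 for all genes tested, and the median SE was 0.151 and 0.177.

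**Figure D1:**
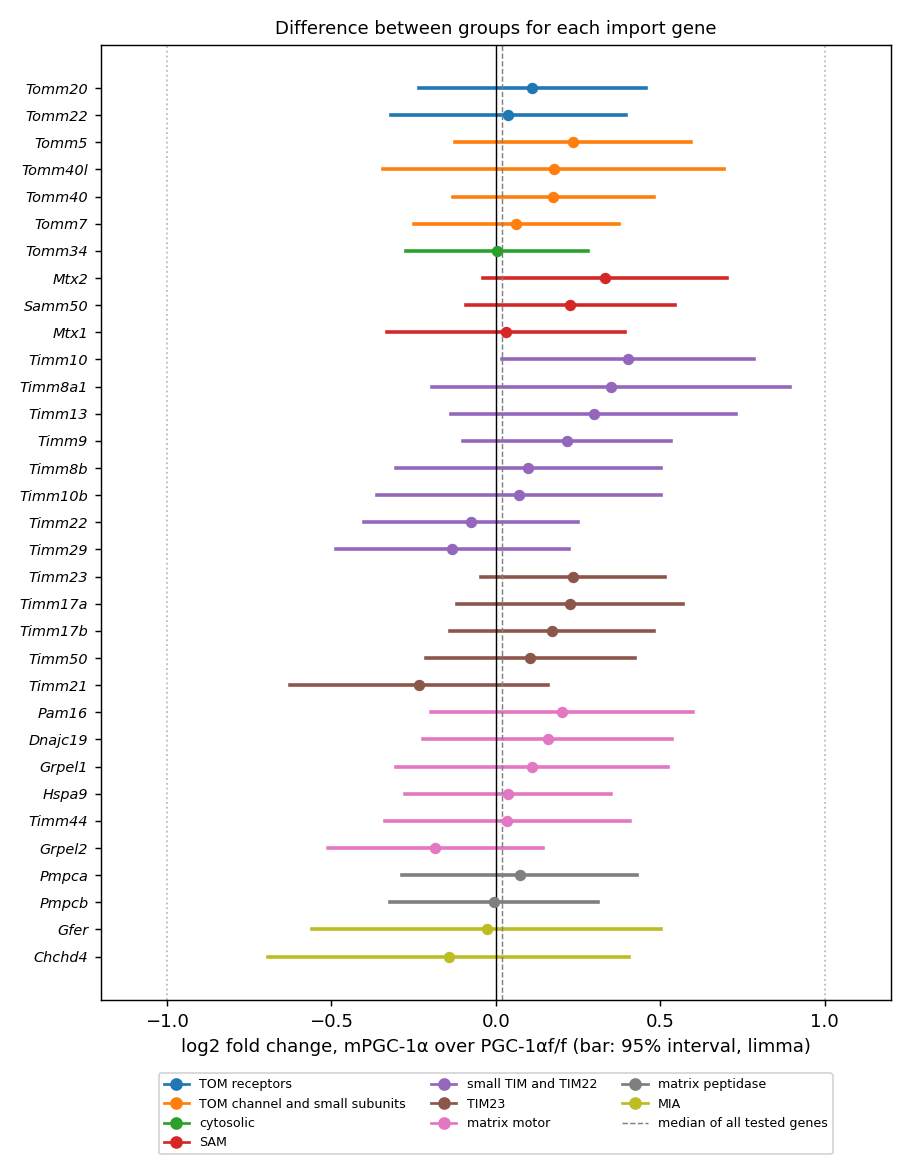
Log2 fold change of mPGC-1α over PGC-1αf/f microglia for the 33 import genes with 6 values, coloured by role, with bars for the 95% limma interval, dotted lines at a 2-fold change and a dashed line at the median of all genes tested (0.02). The points run from -0.23 to 0.40, and no bar reaches a dotted line.

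The small TIM chaperones, hexamers that shield carrier proteins and other hydrophobic precursors in the intermembrane space, held the gene with the largest difference among the 33 with 6 values. Timm10, which pairs with Timm9 in the main chaperone, read 1.77, 1.53 and 1.40 in PGC-1αf/f microglia, against 1.82, 1.92 and 2.17 in mPGC-1α microglia. Every mPGC-1α value lay above every PGC-1αf/f value, although the closest pair was 1.82 against 1.77. The difference was 0.40 (SE 0.16, 95% interval 0.02 to 0.79), or 1.32-fold, with an unadjusted limma p of 0.0415 and an adjusted p of 0.284. It lay between 0.30 and 0.50 when each array was left out in turn, with adjusted p between 0.188 and 0.504, and was 0.27 with the median shift. A second Timm10 probe gave 1.02, 0.90 and 0.74 in PGC-1αf/f microglia, compared with 1.32, 1.29 and 1.28 in mPGC-1α microglia. On that probe the groups also did not overlap, and the difference was 0.41 (SE 0.13, limma adjusted p = 0.228).

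Timm9, the partner of Timm10, was added to the genes described in full after its values were seen. It read 1.60, 1.57 and 1.59 in PGC-1αf/f microglia, against 1.77, 1.67 and 1.97 in mPGC-1α microglia. The control values lay within a narrow band, and all mPGC-1α values lay above it. The difference was 0.22 (SE 0.13, limma adjusted p = 0.432), and 0.13 without mPGC-1α replicate 3 and 0.083 with the median shift. A dimmer Timm9 probe, with a value on 5 arrays, differed by 0.18 (SE 0.23).

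Timm13, which forms the second chaperone with Timm8a1 and Timm8b, read 2.81, 2.62 and 2.23 in PGC-1αf/f microglia, compared with 2.88, 2.70 and 2.97 in mPGC-1α microglia. PGC-1αf/f replicate 3 was the lowest, and the other arrays of both groups overlapped. Its difference was 0.30 (SE 0.18, limma adjusted p = 0.430), and 0.14 without PGC-1αf/f replicate 3. Timm8a1 differed by 0.35 (SE 0.23), between 0.17 without PGC-1αf/f replicate 3 and 0.53 without PGC-1αf/f replicate 1. Timm8b differed by 0.10, between -0.04 and 0.20 without those same arrays. Timm10b, a subunit that docks the chaperone at TIM22, differed by 0.07, between -0.09 without mPGC-1α replicate 3 and 0.18 without mPGC-1α replicate 1. All 3 had overlapping groups. Timm22, the channel for carrier proteins itself, pointed the other way, at 0.96, 0.88 and 0.73 in PGC-1αf/f microglia, against 0.91, 0.66 and 0.77 in mPGC-1α microglia. Those groups overlapped, with a difference of -0.08 (SE 0.14, limma adjusted p = 0.800). That difference ranged from -0.21 with the median shift to -0.0079 with normexp plus quantile normalization. Timm29, a further subunit of the TIM22 complex, differed by -0.13 (SE 0.15), between -0.26 with the median shift and -0.047 without mPGC-1α replicate 3. Of the 8 tested genes of this group 6 had a higher mean and 2 a lower one, Timm22 and Timm29, whereas aligning arrays on their median left 4 on each side.

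The TIM23 complex takes proteins with a presequence across or into the inner membrane. Timm23, its central subunit, read 2.78, 2.74 and 2.69 in PGC-1αf/f microglia, compared with 3.00, 2.94 and 2.98 in mPGC-1α microglia. The groups did not overlap and each was tight, with an SD of 0.044 in PGC-1αf/f and 0.031 in mPGC-1α microglia (n = 3 each). The difference was 0.24 (SE 0.12), or 1.18-fold, at a limma adjusted p of 0.354, and it lay between 0.21 and 0.26 when any 1 array was left out, but was 0.10 with the median shift, where the groups overlapped, and 0.14 with quantile normalization. Timm17a, a second channel subunit, read 2.72, 2.49 and 2.46 in PGC-1αf/f microglia, against 2.90, 2.63 and 2.82 in mPGC-1α microglia. Here 1 control array reached into the mPGC-1α range, and the difference was 0.23 (SE 0.14, limma adjusted p = 0.447), or 0.093 with the median shift. Its paralogue Timm17b differed by 0.17, between 0.037 with the median shift and 0.23 without PGC-1αf/f replicate 2. The receptor subunit Timm50 differed by 0.10, between -0.028 with the median shift and 0.18 without PGC-1αf/f replicate 3. Timm21, which links TIM23 to the outer membrane and to the respiratory chain, had the lowest difference of the 33 genes with 6 values, at -0.23 (SE 0.17, limma adjusted p = 0.489), with overlapping groups. It was -0.14 without PGC-1αf/f replicate 3, -0.13 without mPGC-1α replicate 2 and -0.37 with the median shift.

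The 3 SAM genes had a higher mean, although that of Mtx1 was below 0 in 3 of the 4 other scalings. The SAM complex of the outer membrane assembles barrel proteins such as the TOM channel. Mtx2, a metaxin on its cytosolic face, read 0.89, 0.54 and 0.77 in PGC-1αf/f microglia, compared with 1.25, 0.93 and 1.01 in mPGC-1α microglia. Without overlap, the groups differed by 0.33 (SE 0.16), or 1.26-fold, at a limma adjusted p of 0.337, and by 0.20 with the median shift. A second Mtx2 probe differed by 0.33 as well (SE 0.16, adjusted p = 0.341), also without overlap. Samm50, the central barrel of the complex, read 0.52, 0.44 and 0.45 in PGC-1αf/f microglia, against 0.86, 0.67 and 0.56 in mPGC-1α microglia. Its groups did not overlap either, the difference being 0.23 (SE 0.13, limma adjusted p = 0.416), 0.15 without mPGC-1α replicate 1, the highest of its arrays, and 0.094 with the median shift. Mtx1, the other metaxin, differed by 0.03 (SE 0.15) with overlapping groups, between -0.10 with array weights and 0.10 without PGC-1αf/f replicate 2.

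The TOM receptors recognise precursors at the mitochondrial surface. Neither of their 2 genes with 6 values had groups apart on its brightest probe, although Tomm20 did with the mean over its probes. Tomm20, the presequence receptor and a common protein marker of mitochondria, read 2.91, 2.60 and 2.56 in PGC-1αf/f microglia, compared with 2.81, 2.74 and 2.86 in mPGC-1α microglia. The highest of the 6 values was a control, PGC-1αf/f replicate 1, and the difference was 0.11 (SE 0.15, 95% interval -0.23 to 0.46, limma adjusted p = 0.715). That difference was 0.046 without PGC-1αf/f replicate 3, 0.22 without PGC-1αf/f replicate 1 and -0.021 with the median shift. Its 3 tested probes ranged from 0.11 to 0.18. Tomm22, the central receptor, read 2.63, 2.63 and 2.56 in PGC-1αf/f microglia, against 2.62, 2.44 and 2.88 in mPGC-1α microglia. Both the highest and the lowest of those 6 arrays were mPGC-1α, and the difference was 0.04 (SE 0.15, limma adjusted p = 0.913), with a range over alternatives of -0.09 to 0.14.

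Tomm70a, the receptor for carrier proteins, could hardly be measured. Its spot was marked as an outlier by the scanner software on 4 of 6 arrays, which left 0.49 on PGC-1αf/f replicate 2 and -0.13 on mPGC-1α replicate 3. The fitted difference of -0.63 (SE 0.31, limma adjusted p = 0.416) therefore rests on 1 array against 1, with the spread borrowed from other genes. With the marked spots kept, it read 0.82, 0.49 and 0.11 in PGC-1αf/f microglia, compared with 0.59, 0.59 and -0.13 in mPGC-1α microglia. The groups then overlapped widely, with a difference of -0.13 (SE 0.27, adjusted p = 0.828).

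The 5 genes of the TOM channel and its small subunits had a higher mean, by 0.06 to 0.24. However, Tomm7 turned below 0 with quantile normalization alone, with normexp plus quantile normalization and with the median shift. Tomm6 turned below 0 with the median shift and the deposited table. None of the 4 with 6 values had groups apart on its brightest probe. Tomm40, the channel, read 2.12, 2.18 and 2.35 in PGC-1αf/f microglia, against 2.32, 2.44 and 2.41 in mPGC-1α microglia. Only PGC-1αf/f replicate 3 reached into the mPGC-1α range, and the difference was 0.18 (SE 0.13, limma adjusted p = 0.505), or 0.043 with the median shift. The other 2 Tomm40 probes, both dimmer, differed by 0.17 and 0.38 with groups that did not overlap. Tomm5, a small subunit that hands precursors to the channel, read 2.40, 2.74 and 2.43 in PGC-1αf/f microglia, compared with 2.67, 2.71 and 2.90 in mPGC-1α microglia. Those groups overlapped through PGC-1αf/f replicate 2, and the difference was 0.24 (SE 0.15, limma adjusted p = 0.449), between 0.075 with array weights and 0.34 without PGC-1αf/f replicate 2. Tomm6 differed by 0.19, and by 0.071 without PGC-1αf/f replicate 3. The channel paralogue Tomm40l differed by 0.18, between -0.039 without PGC-1αf/f replicate 1 and 0.30 without PGC-1αf/f replicate 2. Tomm7 differed by 0.06, and by 0.0018 without PGC-1αf/f replicate 3 and 0.13 without PGC-1αf/f replicate 1. Tomm34, a cytosolic cochaperone of precursors that is not part of the complex, read 2.07, 2.09 and 2.10 in PGC-1αf/f microglia, against 2.06, 2.09 and 2.13 in mPGC-1α microglia. It had the smallest difference of the 35, 0.0033 (SE 0.12, limma 95% interval -0.27 to 0.28, range over alternatives -0.13 to 0.055), and the mPGC-1α values enclosed the controls.

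The motor subunits of the matrix side differed little. Hspa9, the mtHsp70 chaperone that does the pulling, read 2.10, 2.25 and 2.14 in PGC-1αf/f microglia, compared with 2.11, 2.34 and 2.16 in mPGC-1α microglia. Timm44, which tethers it to the channel, read 1.88, 1.87 and 2.15 in PGC-1αf/f microglia, against 1.84, 1.96 and 2.21 in mPGC-1α microglia. Both pairs of groups overlapped over most of their range, with a difference of 0.04 for each (SE 0.13 and 0.16, limma adjusted p = 0.903 and 0.923). The range over alternatives was -0.10 to 0.17 for Hspa9 and -0.10 to 0.15 for Timm44. The second Timm44 probe, which was dimmer, differed by 0.27 (SE 0.14, adjusted p = 0.365) without overlap, and the second Hspa9 probe by 0.29 (SE 0.32) with overlap, so the probes of both genes shared a sign but not a size.

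Pam16, a regulator of the motor's cochaperone, read 2.26, 2.20 and 1.80 in PGC-1αf/f microglia, compared with 2.29, 2.16 and 2.41 in mPGC-1α microglia. As for Timm13, PGC-1αf/f replicate 3 was the low value, and the difference of 0.20 (SE 0.17, limma adjusted p = 0.558) became 0.058 without that array. Grpel2, one of the nucleotide exchange factors of mtHsp70, read 1.26, 1.24 and 1.46 in PGC-1αf/f microglia, against 1.01, 1.26 and 1.15 in mPGC-1α microglia. It was the only one of the 6 motor genes with a lower mean on its brightest probe, although 3 others joined it with the median shift, and it differed by -0.18 (SE 0.14, limma adjusted p = 0.514) with overlapping groups. The Grpel2 difference was -0.11 without PGC-1αf/f replicate 3, -0.12 without mPGC-1α replicate 1, -0.09 with array weights and -0.32 with the median shift. Its paralogue Grpel1 differed by 0.11 (SE 0.17), by -0.0033 to 0.23 when any 1 array was left out, and by -0.022 with the median shift. Dnajc19, the cochaperone itself, differed by 0.16 (SE 0.16) on its brightest probe. The range was 0.022 with normexp plus quantile normalization to 0.23 without mPGC-1α replicate 2. The Dnajc19 difference was 0.059 without PGC-1αf/f replicate 3 and 0.056 without mPGC-1α replicate 3.

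No gene of the matrix processing peptidase or the MIA pathway had groups apart. Pmpca, the substrate-binding subunit of the peptidase, read 0.08, -0.02 and 0.31 in PGC-1αf/f microglia, compared with 0.36, 0.07 and 0.16 in mPGC-1α microglia, a difference of 0.07 (SE 0.15, limma adjusted p = 0.825) with a range over alternatives of -0.06 to 0.17. Pmpcb, its catalytic subunit, read 2.87, 2.67 and 2.66 in PGC-1αf/f microglia, against 2.81, 2.62 and 2.76 in mPGC-1α microglia. The groups of both subunits overlapped, and Pmpcb differed by -0.0059 (SE 0.13, limma adjusted p = 0.986, range over alternatives -0.14 to 0.062). Chchd4, the oxidoreductase that puts disulfide bonds into precursors, read -0.85, -0.97 and -1.03 in PGC-1αf/f microglia, compared with -0.81, -0.86 and -1.61 in mPGC-1α microglia. All arrays but mPGC-1α replicate 3 lay close together, and the difference of -0.14 (SE 0.23, limma adjusted p = 0.772) turned to 0.12 without that array and was -0.29 without mPGC-1α replicate 1. Gfer, which reoxidises Chchd4, read 0.78, 1.65 and 1.10 in PGC-1αf/f microglia, against 1.16, 1.18 and 1.11 in mPGC-1α microglia. The mPGC-1α values lay within the wide range of the controls, and the difference of -0.03 (SE 0.22, limma adjusted p = 0.960) turned to 0.21 without PGC-1αf/f replicate 2 and was -0.27 with array weights.

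**Figure D2:**
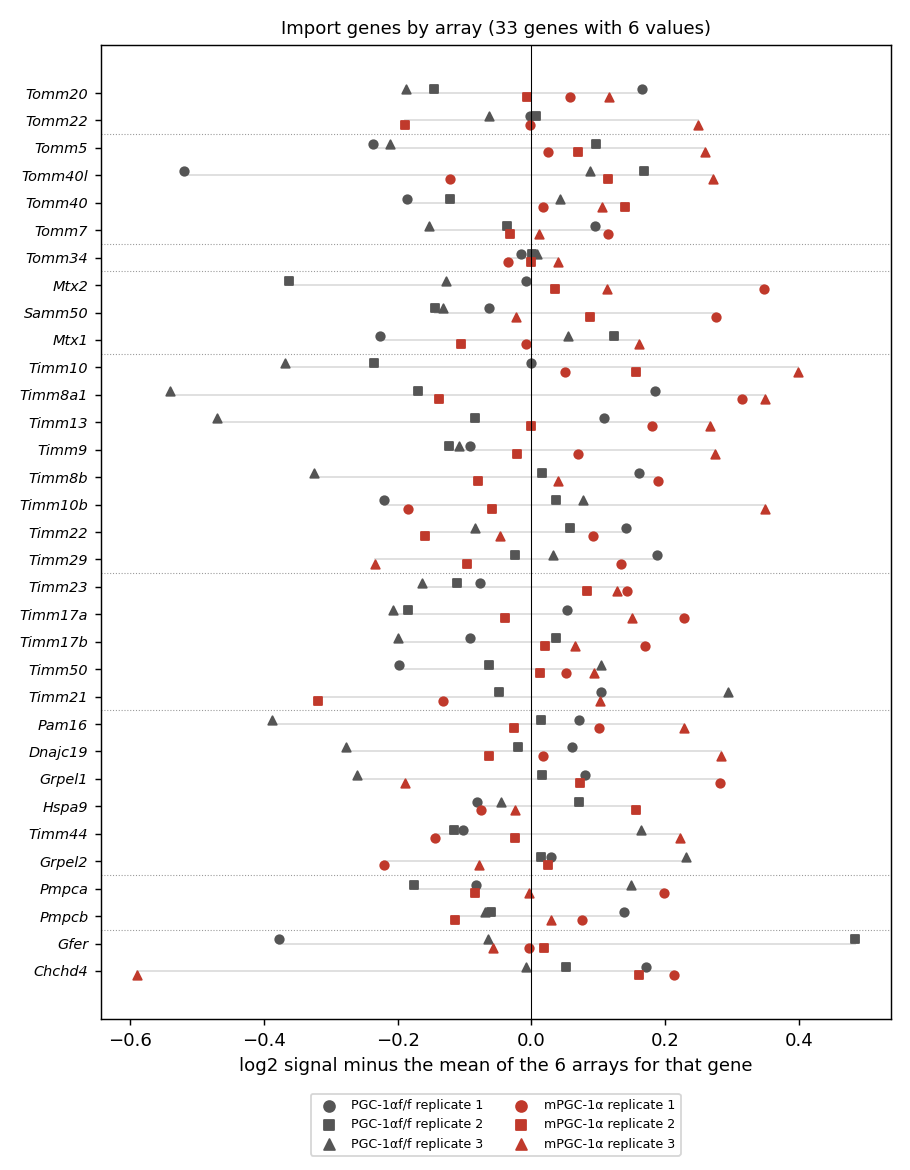
Log2 signal on each array minus the mean of the 6 arrays for the 33 import genes with 6 values, in rows grouped by role from the TOM receptors to the MIA pathway, with grey symbols for PGC-1αf/f and red symbols for mPGC-1α replicates. Red symbols lie to the right of all grey ones for Mtx2, Samm50, Timm10, Timm9 and Timm23, and the far left symbols of several rows are PGC-1αf/f replicate 3.

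The extremes of the import genes were then counted by array. The median deviation of the 33 genes from their own 6-array means came to -0.0015, -0.025 and -0.084 for PGC-1αf/f, and to 0.07, -0.0072 and 0.11 for mPGC-1α. Over all 11861 genes with 6 values the same medians were 0.03, -0.01 and -0.03 and 0.02, 0.0052 and 0.05. Thus mPGC-1α replicate 2 lay within the control range in this respect, and mPGC-1α replicate 3 highest. Of the 33 genes, 13 had their highest value on mPGC-1α replicate 3 (39.4%, beside 23.4% of all genes) and 10 on mPGC-1α replicate 1 (30.3%, beside 19.3%). The lowest value lay on PGC-1αf/f replicate 3 for 12 (36.4%, near the 33.8% of all genes) and on PGC-1αf/f replicate 1 for 8 (24.2%, beside 13.4%). However, PGC-1αf/f replicate 3 held the highest value for only 3 of the 33 (9.09%, beside 26.2% of all genes). The median difference of the tested import genes was 0.07 without PGC-1αf/f replicate 3, the array low in blood leukocyte markers, and 0.08 without mPGC-1α replicate 3, the array without Y-linked signal. Without PGC-1αf/f replicate 3 the differences of 23 of the 35 genes moved by over 1.5 times in size, 14 of them toward 0. With any other array left out, 10 to 16 moved as far, and no share over all genes is given. Oligodendrocyte markers also moved with the groups, with a summed level of 3.99 to 4.27 in PGC-1αf/f and 3.33 to 3.72 in mPGC-1α microglia and with 7 of 8 markers well above background on all arrays. The part of these marker levels in the import genes was not tested.

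Several probes of a gene gave a check within the same arrays. Of 14 import genes with at least 2 tested probes, 13 had probes that shared a sign. Timm10 ranged from 0.40 to 0.41 over its probes, Mtx2 gave 0.33 on each, and Tomm5 ranged from 0.22 to 0.24. Dnajc19 was the exception, with 3 probes from -0.42 to 0.16 matched to 3 transcript accessions of the gene. Its lowest probe lacked a value on mPGC-1α replicate 2 and had an adjusted p of 0.325.

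**Figure D3:**
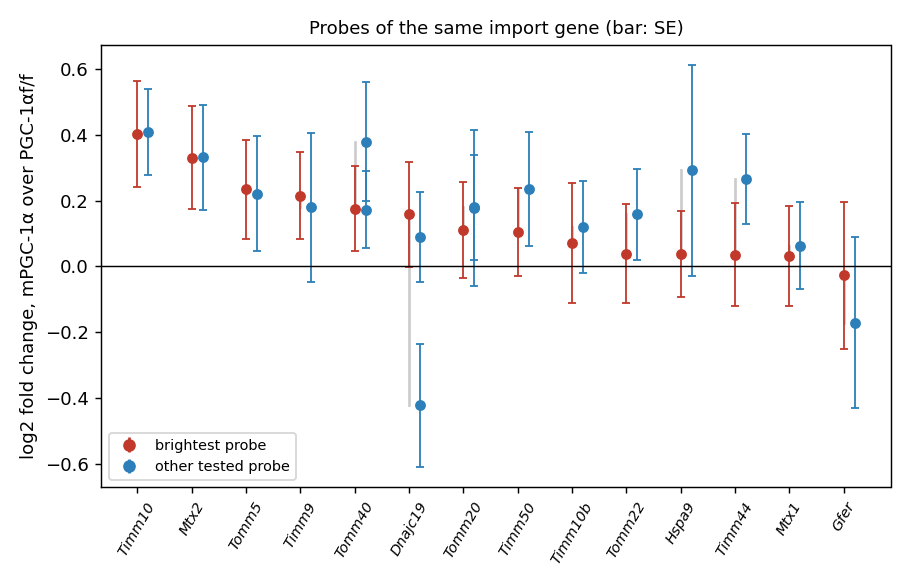
Log2 fold change of mPGC-1α over PGC-1αf/f microglia for each tested probe of the 14 import genes with at least 2 tested probes, with red for the brightest probe, blue for the others and bars for the SE. The probes of Timm10 and Mtx2 sit at the same height, those of Hspa9 and Timm44 are spread above 0, and 1 Dnajc19 probe lies at -0.42.

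Promoters of all import genes were described as sequence context, not in support of a difference. Factors through which PGC-1α is known to act on mitochondrial genes include NRF1, the ETS factor GABPA, ERR receptors and YY1, and their core motifs were searched on both strands of RefSeq promoters (GRCm38.p6) from 250 bases before to 50 after the annotated start. Of the 38 import genes, 33 matched an entry, with 35 promoters, and Grpel2, Hspa9, Timm21, Tomm40l and Tomm7 had none. The GABPA core CCGGAAG lay in 15 of the 35 promoters (42.9%), those of 14 genes, beside 8.86% of all 32851 promoters in the table and 16.2% of the 13362 promoters of genes tested on these arrays. The NRF1 core GCGCATGC lay in 2 (5.71%, beside 4.8% of promoters of tested genes), those of Grpel1 and Timm13. The ERR core AAGGTCA lay in 3 (8.57%, beside 3.44%), those of Timm23, Timm44 and Timm8b, and the YY1 core AAGATGGC in 2 (5.71%, beside 4.21%), those of Mtx1 and Timm50. A match describes the letters in a window and not a bound site, and the share was not tested.

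The 120 bases before the start used in the promoter table are shown for 4 of the 5 genes with groups apart so that promoters with and without a match can be read side by side. They read 5′ to 3′ on the strand of the gene, with matches to the GABPA core, or to its reverse complement CTTCCGG, in capitals. Timm9 is not shown, because its start in that table lies within the annotated gene and 33 of the 120 bases are inside it, whereas the other 4 stretches end at the gene's annotated start.
Timm10, chr2:84826901-84827020, plus strand: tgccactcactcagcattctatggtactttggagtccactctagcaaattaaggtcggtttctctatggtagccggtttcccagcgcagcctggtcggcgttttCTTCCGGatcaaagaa
Mtx2, chr2:74825692-74825811, plus strand: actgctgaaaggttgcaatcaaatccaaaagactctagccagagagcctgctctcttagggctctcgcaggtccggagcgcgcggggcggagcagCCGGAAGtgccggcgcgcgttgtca
Timm23, chr14:32201892-32202011, minus strand: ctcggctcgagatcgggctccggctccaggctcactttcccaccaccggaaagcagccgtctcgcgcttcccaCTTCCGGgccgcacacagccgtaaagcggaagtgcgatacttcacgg
Samm50, chr15:84192120-84192239, plus strand: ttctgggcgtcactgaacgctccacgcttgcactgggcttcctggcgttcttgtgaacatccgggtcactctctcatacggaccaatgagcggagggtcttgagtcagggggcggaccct
The first base of the match lay at -16 in Timm10, -25 in Mtx2 and -47 in Timm23 relative to the start. The whole searched windows of Samm50 and Timm9 held none of the 4 cores. Conversely, Tomm22, Tomm34 and Pmpcb held GABPA cores and had differences of 0.04, 0.0033 and -0.0059, so a match also stood in promoters of genes with differences near 0.

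**Figure D4:**
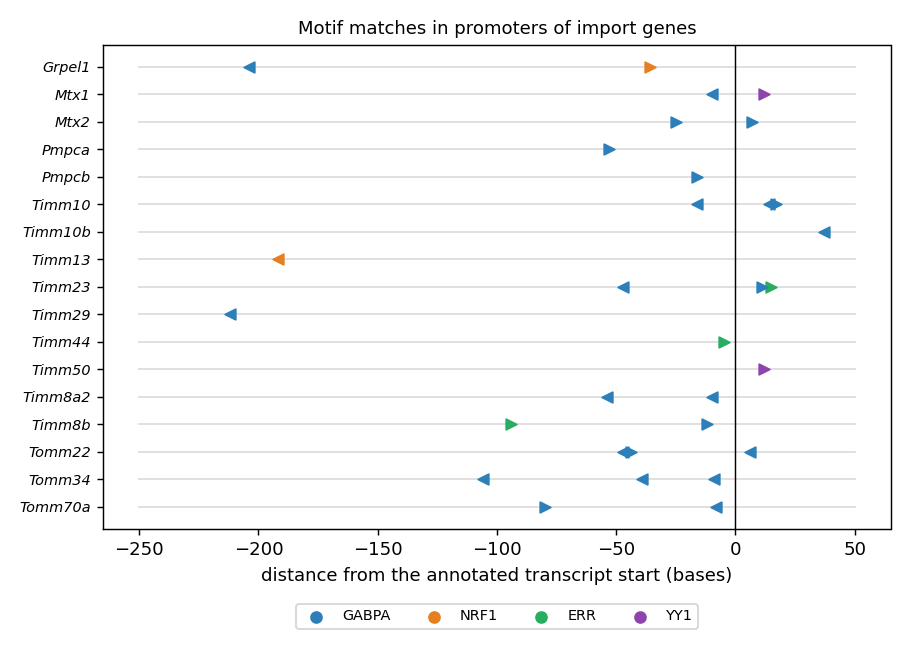
Position of motif matches in the RefSeq promoters of the 17 import genes that hold at least 1, by distance in bases from the annotated transcript start, with colours for the motif and triangles pointing right for the gene's own strand and left for the other. Most GABPA matches lie close to the start, including those of Timm10, Mtx2 and Timm23.

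Next, genes that work beside the import machines were described from lists of partners, proteases and clients, and again 0 passed the adjusted threshold in any list. Of 10 partners of the inner and outer membrane, 6 had a higher and 4 a lower mean, with a median difference of 0.16. That median was 0.029 with the median shift (5 higher), 0.085 with quantile normalization and 0.13 with the deposited table. Among 6 tested of 7 genes for presequence processing and matrix folding, 4 had a higher and 2 a lower mean, with a median of 0.12. With the median shift 2 were higher and the median was -0.017. None of the 6 had an unadjusted p under 0.05. Without PGC-1αf/f replicate 3, 2 of those 6 had a higher mean and the median was -0.02. The 11 proteases and quality control genes were divided, 6 higher and 5 lower in mean with a median of 0.01. That median was -0.12 with the median shift (2 higher), -0.014 with quantile normalization and -0.024 with the deposited table. With normexp plus quantile normalization it was 0.0094. In this list 1 in each direction had an unadjusted p under 0.05, beside 7.83% of all genes higher and 5.75% lower. The median of these 11 was -0.08 without PGC-1αf/f replicate 1. Clpp, a protease of the matrix, read 0.45, 0.69 and 0.48 in PGC-1αf/f microglia, compared with 0.98, 0.78 and 0.83 in mPGC-1α microglia. Oma1, a stress-activated protease of the inner membrane, read 0.91, 1.08 and 1.35 in PGC-1αf/f microglia, against 0.55, 0.73 and 0.80 in mPGC-1α microglia. Neither pair of groups overlapped, and the differences were 0.33 (SE 0.14, limma adjusted p = 0.298) for Clpp and -0.42 (SE 0.16, adjusted p = 0.274) for Oma1.

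Clients of the routes were examined last. Of 8 tested of 9 carrier proteins that TIM22 inserts, 6 had a higher and 2 a lower mean, with a median of 0.17. However, 3 were higher with quantile normalization (median -0.013) and 4 with the median shift (median 0.040). Only 6 of the 8 had 6 values, 4 of them with a higher mean, and Slc25a4 and Slc25a5, both counted as higher, had 1 mPGC-1α value each, on mPGC-1α replicate 3. Over those same 6 genes the median was 0.27, and 0.08 without PGC-1αf/f replicate 3 and 0.44 without PGC-1αf/f replicate 1. Slc25a12, an aspartate-glutamate carrier of the inner membrane, read 1.39, 1.19 and 0.81 in PGC-1αf/f microglia, compared with 1.81, 1.60 and 1.73 in mPGC-1α microglia. The groups did not overlap, and the difference was 0.58 (SE 0.18), with an unadjusted limma p of 0.015 and an adjusted p of 0.221. All 15 twin-cysteine proteins that Chchd4 oxidises were tested. A higher mean was found for 14 and a lower one for 1, beside 52.9% of all genes with a higher mean. The median was 0.20 and the range -0.03 to 0.57. Over the 4 other scalings 12 to 15 were higher. Their medians ran from 0.067 with the median shift to 0.16 with normexp plus quantile normalization. Fewer than 6 values were available for 2 of the 15, and the single control value of Cox6b1 was on PGC-1αf/f replicate 3. That array held the lowest value for 10 of the 13 with 6 values (76.9%, beside 33.8% of all genes), and without it 13 of 14 had a higher mean, with a median of 0.11. None reached an unadjusted p under 0.05, and 3 of the 13 with 6 values had groups apart and higher, beside 12.4% of all genes, and 0 had groups apart and lower, beside 10.7%.

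**Figure D5:**
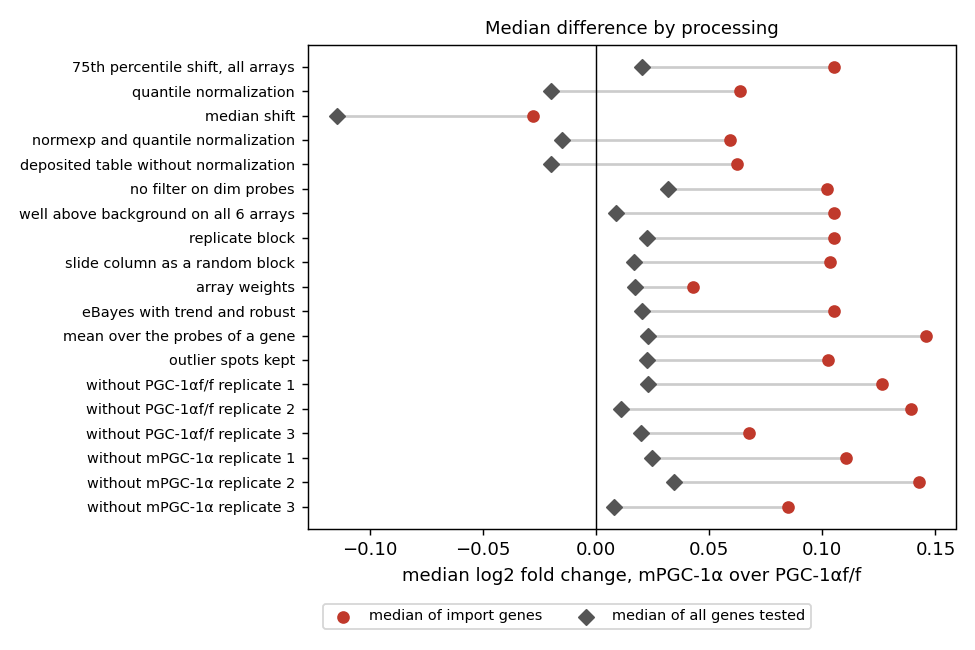
Median log2 fold change of mPGC-1α over PGC-1αf/f microglia under each processing setting, with red circles for the import genes and grey diamonds for all genes tested. The import genes lie to the right of all genes in every row, by 0.026 with array weights up to 0.128 without PGC-1αf/f replicate 2, and both lie below 0 with the median shift.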

How the data were processed

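Total RNA of P2RY12-selected microglia was amplified, labelled with Cy5 and hybridized to 1-colour Agilent mouse expression arrays. The deposited scanner files hold a background-corrected intensity for each spot, made by the authors with Feature Extraction, and the deposited table of the whole series holds the same intensity without normalization between arrays. The study's methods name GeneSpring and state no test per gene for the arrays.

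Control spots and spots marked as outliers on an array were left out, the 75th percentile of an array was subtracted from its log2 intensity without a pseudocount, and a probe was tested when every array of at least 1 group had it well above background (25333 of 56605 probes). Fits used two-sided limma models (version 3.58.1, lmFit and eBayes) in R 4.3.3 (tables read with the package data.table, release 1.17.8), with Benjamini-Hochberg adjustment over all tested probes and a threshold of 0.05. The code was tested on simulated data. Transcript accessions were matched to RefSeq gene names, and 33767 probes had 1 symbol. Precision is limited by the 3 arrays per group. Figures were drawn with matplotlib 3.10.9 and pandas 2.3.3 in Python 3.11.15.

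Members and lists were chosen with earlier results of these data known. Values on every array are given for genes with an unadjusted p under 0.05, for the 2 smallest p of each role and for defining subunits. In the lists of partners, proteases and clients, genes with an unadjusted p under 0.05 are named. The marker lists covered microglia, blood leukocytes, neurons, astrocytes, oligodendrocytes, endothelial and mural cells, erythroid cells and Y-linked genes. The summed levels of the neuron, astrocyte, endothelial and mural, and erythroid lists ranged from 3.64 to 4.04, 3.68 to 4.56, -0.35 to 1.76 and 2.42 to 4.58. Alternatives included other scalings (quantile, median shift, normexp with an offset of 50 plus quantile normalization, the deposited table). No setting used normexp alone. The other alternatives were other filters, a replicate block, the slide column as a random block, array weights, trend and robust variance, the mean over probes, and each array left out. Keeping outlier spots, and leaving out each array for the lists of partners, proteases and clients, were chosen after seeing the data. Replicate numbers did not pair the samples.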

Additional observations from a re-analysis of the deposited data

How the results depend on the processing

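No import gene passed the adjusted threshold under any of 18 alternatives, where the smallest adjusted p ranged from 0.134 to 1. The count higher at an unadjusted p under 0.05, 1 here, was 0 with the median shift, the deposited table, no filter on dim probes or the replicate block. It was 2 with normexp plus quantile normalization, the slide column as a random block, array weights, or trend and robust variance. When each array was left out, it ranged from 0 to 1. The replicate numbers, whose samples' deviations correlated by 0.14, 0.13 and 0.019, were not taken as pairs. The replicate block left the median at 0.10. With 1 array of each group per number, it cannot change the difference of a gene with a value on each array. That median is therefore no check on pairing. The filters and trend and robust variance also left the difference of each tested gene as it was. The count higher without overlap, 5 here, was 1 with the median shift, 3 with normexp plus quantile normalization and 1 with the deposited table. It was 7 with the mean over probes, which added Tomm20 and Tomm40. When each array was left out, it ranged from 5 to 10. It was 8 without PGC-1αf/f replicate 2, 10 without PGC-1αf/f replicate 1 and 10 without mPGC-1α replicate 2. The count lower without overlap, 0 here, was 2 with the median shift and 0 to 2 with an array left out, the 2 arising without PGC-1αf/f replicate 2. Since each array was scaled on its own, leaving one out can only widen the gap between groups, so neither range is a sign of stability.

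The median difference of the import genes turned to -0.028 with the median shift and was 0.043 with array weights, and ranged from 0.07 to 0.14 when each array was left out. Of the 35 genes, 13 turned below 0 with the median shift and 6 with normexp plus quantile normalization. With array weights 5 did, and with quantile normalization alone 4. The values that follow are those of genes described on every array. With quantile normalization, Timm44 was -0.0016, Tomm22 -0.047 and Tomm34 -0.030. With the median shift, Hspa9 was -0.095, Pmpca -0.059, Timm44 -0.097, Tomm20 -0.021, Tomm22 -0.094 and Tomm34 -0.13. With normexp plus quantile normalization, Hspa9 was -0.052, Pmpca -0.010, Timm44 -0.060 and Tomm22 -0.026. Tomm34 was -0.032 with the deposited table, -0.00037 with the slide column as a block and -0.0032 with array weights, under which Chchd4 was 0.013 and Tomm22 -0.084. With an array left out, the ranges were -0.29 to 0.12 for Chchd4, -0.22 to 0.21 for Gfer, -0.031 to 0.084 for Hspa9, -0.0073 to 0.17 for Pmpca, -0.046 to 0.062 for Pmpcb, -0.066 to 0.13 for Timm44, -0.076 to 0.14 for Tomm22 and -0.016 to 0.021 for Tomm34. The median shift lowers the difference of every gene with a value on each array by the same amount. There the sign turned only where the difference had been small and above 0. The cause of the other changes was not tested. Tomm70a could not be fitted without PGC-1αf/f replicate 2 or without mPGC-1α replicate 3. With the replicate block it had a difference but no test result. Signal over background left Tomm20l, Timm8a2 and Tomm6os without a tested difference.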
